A study of Mus musculus with 9 samples.

Results

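HEI-OC1 cells given a selenium-carrying nanoreactor before hydrogen peroxide (pretreated H2O2) were compared with HEI-OC1 cells given hydrogen peroxide alone (H2O2), over all genes of the count table. HEI-OC1 is an auditory cell line, derived from the cochlea of a transgenic mouse and widely used to study agents that harm hearing. The comparison uses 6 of the 9 libraries of the study, 3 of pretreated H2O2 and 3 of H2O2, and the 3 libraries of untreated cells (control) serve only as a level. The sample descriptions write the nanoreactor as HCS@Se, the titles as SCGS and the series text as HSC@Se, and these were taken to be 1 agent. The sources used here state neither doses nor times. Cells with the nanoreactor but no H2O2 are not among the groups, so an effect of the nanoreactor alone and an effect on the response to H2O2 cannot be told apart. The labels number the replicates as biosamples and do not say that they came from separate cultures, so p-values measure only the spread between these libraries, which may be technical.

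The libraries held between 55395418 and 67215208 counts. Levels are given as FPKM (fragments per kilobase, scaled by library size), as the authors computed it, and changes as log2 fold changes of the deposited counts from edgeR's quasi-likelihood test, with Benjamini-Hochberg adjusted p over 18092 genes tested. A gene was called, and is said to have risen or fallen, at an adjusted p under 0.05. For every gene given below with its FPKM except Cat, Fth1 and Slc40a1, the values of the pretreated H2O2 libraries and of the H2O2 libraries did not overlap. Over all genes tested, 12700 (70.2%) did not overlap, and the largest rises and falls below were chosen only among such genes. The emphasis lies on genes with a mean of 5 FPKM or more in pretreated H2O2 or in H2O2, of which there were 7681, and 6512 of them reached that level in both groups. Each group is bulk RNA, in which fewer cells of a type and less RNA per cell cannot be told apart.

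Hair cell markers were near 0 in these cells and mesenchyme markers were high. Of the 14 hair cell markers in the FPKM table, 12 stayed under 0.5 FPKM in every pretreated H2O2 and H2O2 library, among them Myo7a, Pou4f3 and Otof. The list summed to 4.28 to 4.53 FPKM in pretreated H2O2, against 1.36 to 1.54 FPKM in H2O2, and most of that gap was Myo15, the myosin of stereocilia tips, at 2.12, 2.23 and 2.297 FPKM in pretreated H2O2, against 0.00778, 0.0231 and 0.00633 FPKM in H2O2. Fibroblast and mesenchyme markers summed to 1658 to 1668 FPKM in pretreated H2O2, against 1875 to 1892 FPKM in H2O2. Cochlear supporting cell markers summed to 29.2 to 30.3 FPKM in pretreated H2O2, against 47.9 to 50.2 FPKM in H2O2, and spiral ganglion neuron markers to 6.82 to 7.39 FPKM in pretreated H2O2, against 5.64 to 5.89 FPKM in H2O2. Macrophage and leukocyte markers summed to 8.41 to 8.89 FPKM in pretreated H2O2, against 9.1 to 11.6 FPKM in H2O2, with 6 of 9 under 0.5 FPKM. Schwann and glial markers summed to 8.15 to 9.10 FPKM in pretreated H2O2, against 19.4 to 20.1 FPKM in H2O2, with 7 of 8 under 0.5 FPKM, and epithelial markers to 1.45 to 2.08 FPKM in pretreated H2O2, against 0.721 to 1.27 FPKM in H2O2. The part of these marker differences in the results below was not tested.

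Hydrogen peroxide crosses membranes and oxidises protein thiols. Cells answer through several transcription programs: NRF2, freed from its adaptor KEAP1, turns on genes for glutathione, thioredoxin and heme breakdown; ATF4, made when eIF2alpha is phosphorylated, turns on genes for amino acid supply; p53 turns on genes that halt the cell cycle; and HSF1 turns on chaperones. Selenium enters selenoproteins such as glutathione peroxidases and thioredoxin reductases as the amino acid selenocysteine.

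Pretreated H2O2 differed from H2O2 in most of the genes tested. Of 18092 genes, 11511 were called (63.6%), 5856 of them higher in pretreated H2O2 (32.4%) and 5655 lower (31.3%), with a median log2 fold change of 0.02. Of the called genes 2805 were at least 2-fold higher (15.5%) and 843 at least 2-fold lower (4.66%). Most of the 2-fold rises lay under 5 FPKM. Among the 7681 genes with 5 FPKM or more in either group, 2567 were higher (33.4%) and 3644 lower (47.4%), with 363 at least 2-fold higher (4.73%) and 248 at least 2-fold lower (3.23%), and a median of −0.10. That filter looks at the groups compared, so the counts over these genes are a description. A fit with offsets for the length and GC content of transcripts (the length-corrected fit) moved this split to 3084 higher and 2747 lower, and over all genes to 6533 higher and 4697 lower, with a median of 0.10. Its counts are given below for lists in which it moved a count by over 1.5 times or changed which direction held more genes, and its values for some single genes. Counts of list members stand against 32.4% higher and 31.3% lower over all genes tested, and against 33.4% higher and 47.4% lower over genes with 5 FPKM or more.

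**Figure D1:**
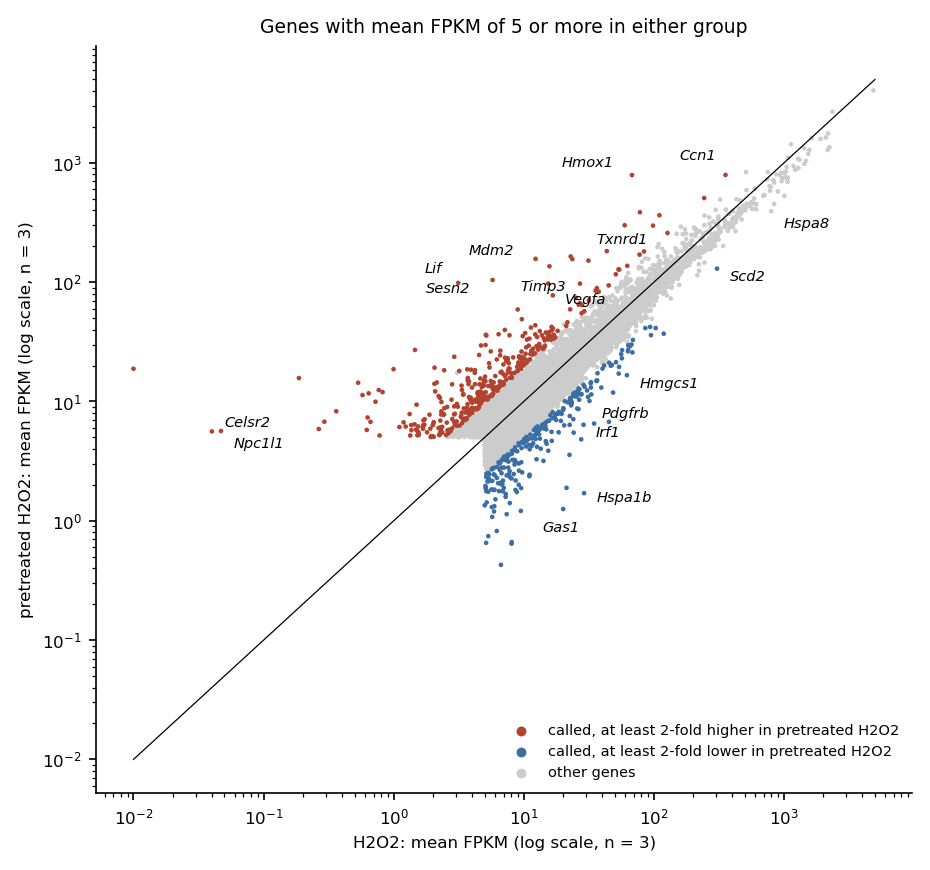
Mean FPKM in pretreated H2O2 (vertical, log scale) against mean FPKM in H2O2 (horizontal, log scale) for genes with 5 FPKM or more in either group, n = 3 libraries each; the line marks equal levels and 1 gene with a mean under 0.01 FPKM is drawn at 0.01. Hmox1 and Ccn1 lie above the line at high level, Lif, Sesn2 and Mdm2 farther above it, and Hspa1b and Gas1 below it.

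The NRF2 program was changed in part. Hmox1, heme oxygenase 1, breaks down heme and is an NRF2 target (ENSMUSG00000005413, chromosome 8, 75093621 to 75100589 on GRCm38). It stood at 777, 802 and 792 FPKM in pretreated H2O2, against 65.5, 69.6 and 68.5 FPKM in H2O2, and the control mean was 45.3 FPKM (log2 fold change 3.57 with an SE of 0.029, adjusted p = 3.98e-16). The H2O2 libraries lay nearer to control, and all 3 pretreated libraries lay far above both. Thioredoxin reductase 1, Txnrd1, the selenoprotein that keeps thioredoxin reduced, reached 153, 152 and 149.6 FPKM in pretreated H2O2 and 31.9, 31.3 and 30.9 FPKM in H2O2 (4.93-fold, log2 fold change 2.30 with an SE of 0.020, adjusted p = 5.3e-16). Sulfiredoxin, Srxn1, which repairs overoxidised peroxiredoxins, had 65.7, 63.96 and 63.6 FPKM in pretreated H2O2, against 29.5, 27.2 and 27.2 FPKM in H2O2 (log2 fold change 1.23, adjusted p = 9.58e-12). The control mean of Srxn1 was 27.6 FPKM, within the range of the H2O2 libraries. The autophagy receptor Sqstm1, whose protein binds KEAP1, had 294 to 303 FPKM in pretreated H2O2 and 97.8 to 99.6 FPKM in H2O2 (log2 fold change 1.63, adjusted p = 4.95e-14).

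Other NRF2 targets moved less or the other way. The quinone reductase Nqo1 had 44.8, 43.2 and 45.1 FPKM in pretreated H2O2, against 31.6, 30.9 and 30.9 FPKM in H2O2 (log2 fold change 0.54, adjusted p = 7.23e-08; 0.81 in the length-corrected fit). The subunits of glutamate-cysteine ligase, the first enzyme of glutathione synthesis, both rose. The modifier Gclm had 18.96, 19.3 and 19.2 FPKM in pretreated H2O2, against 12.3, 11.9 and 12.7 FPKM in H2O2 (1.59-fold, adjusted p = 2.6e-09). The catalytic Gclc had 17.6, 16.9 and 17.3 FPKM in pretreated H2O2, against 12.7, 13.1 and 11.8 FPKM in H2O2 (1.41-fold, adjusted p = 7.48e-07). Cystine reaches the cell through Slc7a11, which had 7.86, 7.497 and 7.83 FPKM in pretreated H2O2 and 2.54, 1.87 and 2.82 FPKM in H2O2 (log2 fold change 1.71 with an SE of 0.10, adjusted p = 2.2e-08). Slc7a11 is also a member of the ATF4 list described below. Gsta1, a glutathione transferase, stood at 3.31, 2.37 and 2.36 FPKM in pretreated H2O2, against 0.2195, 0.175 and 0.307 FPKM in H2O2 (11.6-fold, adjusted p = 3.79e-07). In the other direction, carbonyl reductase Cbr1 had 7.72 to 8.75 FPKM in pretreated H2O2 and 12.04 to 13.8 FPKM in H2O2 (log2 fold change −0.64, adjusted p = 1.03e-05; −0.42 in the length-corrected fit). The glutathione transferase Gstm2 had 22.5 to 24.8 FPKM in pretreated H2O2 and 34.5 to 35.3 FPKM in H2O2 (log2 fold change −0.51; −0.24 in the length-corrected fit). Over 41 tested targets, 20 rose and 15 fell, with a median of 0.19, against 32.4% higher, 31.3% lower and a median of 0.02 over all genes. In the length-corrected fit 22 rose and 6 fell.

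RNA of the genes that regulate this program changed too. NRF2 is encoded by Nfe2l2, which had 38.3, 36.8 and 40 FPKM in pretreated H2O2, against 15.9, 15.4 and 16.1 FPKM in H2O2 and a control mean of 18.1 FPKM (log2 fold change 1.31 with an SE of 0.036, adjusted p = 1.27e-11). Its small MAF partners also rose. Maff reached 34.3, 36.6 and 37.8 FPKM in pretreated H2O2, against 5.08, 5.32 and 4.92 FPKM in H2O2 (log2 fold change 2.86). Mafg had 35.2, 35.3 and 35.4 FPKM in pretreated H2O2, against 10.1, 9.44 and 9.88 FPKM in H2O2 (log2 fold change 1.88). The repressor Bach1, which competes for the same sites, also rose, to 3.87, 4.32 and 3.54 FPKM in pretreated H2O2, against 1.64, 1.58 and 1.66 FPKM in H2O2 (log2 fold change 1.29, adjusted p = 4.46e-07). The inhibitor Keap1 fell to 7.68, 8.195 and 7.69 FPKM in pretreated H2O2, against 11.4, 11.02 and 11.1 FPKM in H2O2 (log2 fold change −0.48, adjusted p = 2.47e-07). Of 13 regulators tested 10 rose and 3 fell.

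**Figure D2:**
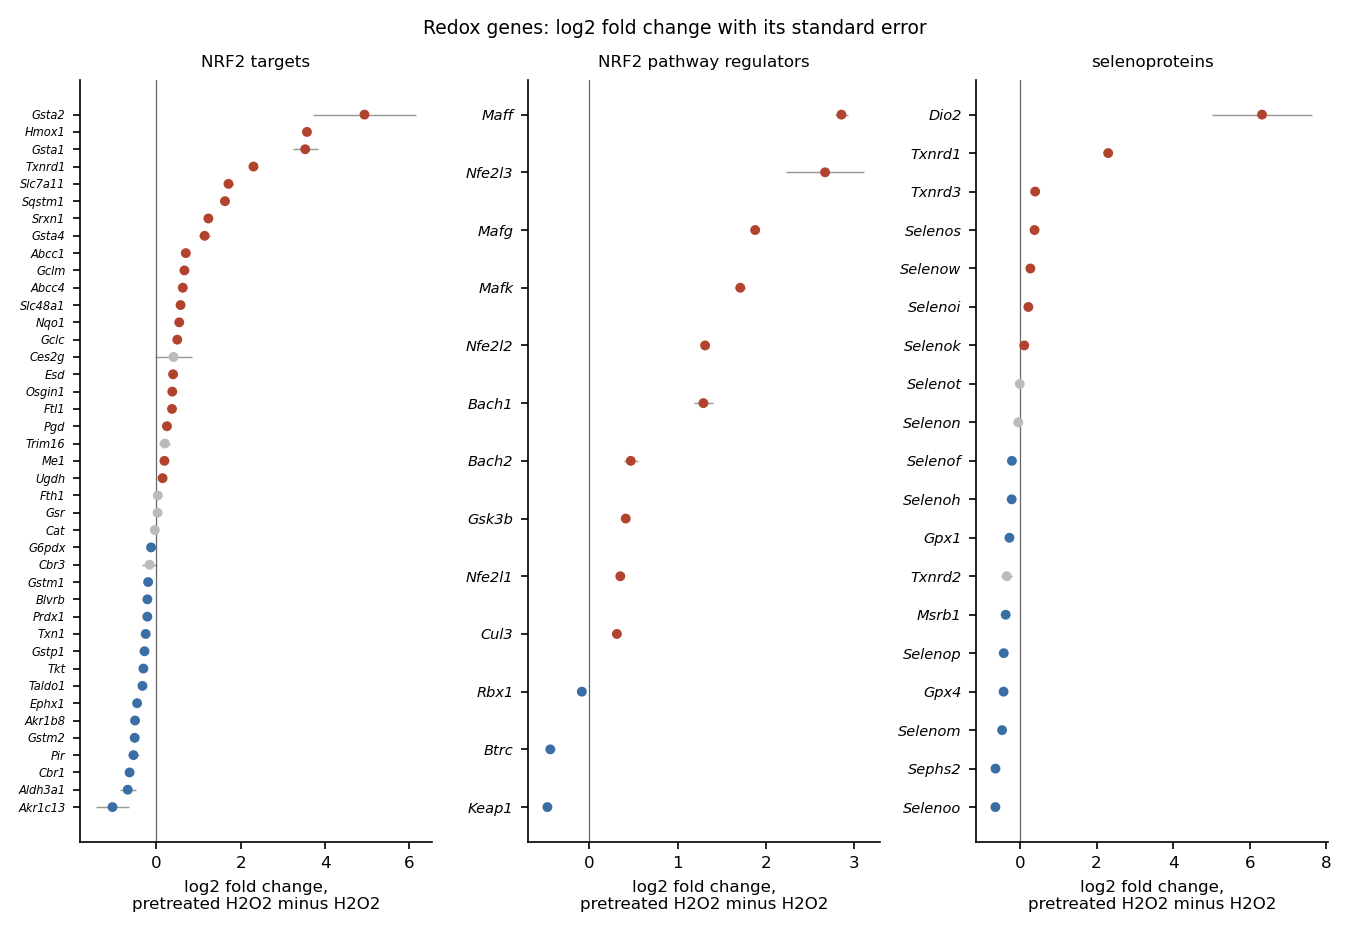
Log2 fold change, pretreated H2O2 minus H2O2 (horizontal), for each tested NRF2 target, NRF2 pathway regulator and selenoprotein, with bars of 1 standard error; red points were called higher, blue points called lower and grey points not called. Hmox1 and Txnrd1 stand far to the right, while Gpx1 and Gpx4 lie left of 0.

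The promoters of genes in these lists were searched for letters known as the core of their regulators' motifs, and a window around the match is shown for 6 genes whose changes carry the results on the NRF2, ATF4, heat shock and sterol lists. Promoter sequences are those of RefSeq on GRCm38.p6, from 250 bases before to 50 bases after each gene start, and each line runs 5′ to 3′ along the gene with 45 bases on either side of the match, or fewer at the promoter's end. Capitals mark the match: TGACNNNGC for NFE2L2 in Txnrd1 (chr10:82859069-82859167, plus strand) and Gclm (chr3:122245378-122245476, plus strand), TGATGNAA for ATF4 with CHOP in Chac1 (chr2:119351004-119351101, plus strand) and Trib3 (chr2:152344011-152344091, minus strand), GAANNTTC for HSF1 in Hspa1b (chr17:34959290-34959387, minus strand) and CACCCCAC for the sterol factor SREBP in Hmgcs1 (chr13:119690170-119690267, plus strand). In Txnrd1, Gclm, Chac1 and Trib3 the motif lies on the opposite strand, so the capitals are its reverse complement. The match begins 92 bases before the gene start in Txnrd1, 134 in Gclm, 193 in Chac1, 104 in Hspa1b and 136 in Hmgcs1, and 14 bases after it in Trib3.
Txnrd1: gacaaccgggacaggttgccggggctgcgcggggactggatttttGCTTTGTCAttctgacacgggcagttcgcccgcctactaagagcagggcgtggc
Gclm: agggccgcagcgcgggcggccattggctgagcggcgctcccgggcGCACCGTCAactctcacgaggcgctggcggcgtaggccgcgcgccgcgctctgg
Chac1: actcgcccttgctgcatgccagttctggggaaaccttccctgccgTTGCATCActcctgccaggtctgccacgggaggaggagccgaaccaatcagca
Trib3: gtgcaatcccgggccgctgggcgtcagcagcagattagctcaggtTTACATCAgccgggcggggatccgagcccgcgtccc
Hspa1b: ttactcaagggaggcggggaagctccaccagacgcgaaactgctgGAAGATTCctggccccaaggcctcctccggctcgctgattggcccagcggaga
Hmgcs1: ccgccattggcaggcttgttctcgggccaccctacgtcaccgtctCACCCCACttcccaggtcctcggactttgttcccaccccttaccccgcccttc
Both strands were searched. TGACNNNGC occurred in at least 1 promoter of 11 of 36 NRF2 targets found in the table (30.6%), against 14% of all 27025 genes with a promoter there. TGATGNAA occurred in 12 of 35 genes of the integrated stress response (34.3%, against 4.51% of all genes), and GAANNTTC in 12 of 28 chaperone genes (42.9%, against 9.04%). CACCCCAC occurred in 2 of 22 cholesterol genes (9.09%, against 3.3%). Overlap of a match with other motifs was not assessed. A match describes these letters in this window and is not a measured binding site.

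Most genes in the list of thioredoxin, peroxiredoxin and superoxide enzymes fell, but not in the length-corrected fit. The list also holds Txnip, sestrins, glutaredoxins and methionine sulfoxide reductases. Of its 30 genes 5 rose and 19 fell, with a median of −0.28, against 32.4% higher and 31.3% lower over all genes. Over genes with 5 FPKM or more the shares were 33.4% higher and 47.4% lower. In the length-corrected fit 8 rose and 10 fell, with a median of −0.08. The cytosolic superoxide dismutase Sod1 had 31.4, 32.6 and 31.4 FPKM in pretreated H2O2, against 43.96, 44.4 and 41.8 FPKM in H2O2 and 28.4 FPKM in control (log2 fold change −0.42 with an SE of 0.031, adjusted p = 1.3e-07). Mitochondrial Sod2 had 5.65, 5.33 and 5.67 FPKM in pretreated H2O2 and 6.42, 6.08 and 6.42 FPKM in H2O2 (log2 fold change −0.15, adjusted p = 0.00437), a call that DESeq2 did not make (−0.11, adjusted p = 0.0552). Catalase, Cat, which splits hydrogen peroxide, stood at 19.2, 19.8 and 19.4 FPKM in pretreated H2O2, against 20.4, 21.1 and 19.7 FPKM in H2O2, with overlapping libraries and no call (adjusted p = 0.456; 0.13 and called higher in the length-corrected fit). Thioredoxin Txn1 had 385 to 390.0 FPKM in pretreated H2O2 and 470.1 to 476 FPKM in H2O2 (log2 fold change −0.25, adjusted p = 1.57e-07). Prdx1 had 147 to 151 FPKM in pretreated H2O2 and 174 to 179 FPKM in H2O2 (log2 fold change −0.22, adjusted p = 2.37e-06). Both of these calls ended in the length-corrected fit, at 0.03 for each gene. Larger changes were found in stress-regulated members. Sesn2, sestrin 2, had 104, 104 and 106 FPKM in pretreated H2O2, against 5.81, 5.97 and 5.49 FPKM in H2O2 (18.5-fold, adjusted p = 2.98e-15). Txnip, the inhibitor of thioredoxin, had 0.648, 0.761 and 1.05 FPKM in pretreated H2O2, against 6.63, 5.93 and 6.05 FPKM in H2O2 (7.33-fold lower, adjusted p = 5.01e-09).

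Selenoprotein RNA moved in both directions. Of 19 tested selenoproteins 7 rose and 9 fell, with a median of −0.21, counts near the shares over genes with 5 FPKM or more (33.4% higher and 47.4% lower). In the length-corrected fit 7 rose and 4 fell, with a median of −0.01. Glutathione peroxidase 4, Gpx4, which reduces lipid peroxides, had 86.3, 95.6 and 92.8 FPKM in pretreated H2O2, against 124, 128 and 125 FPKM in H2O2, and stood at 86.5 FPKM in control (log2 fold change −0.43 with an SE of 0.037, adjusted p = 5.21e-07; −0.19 and still called in the length-corrected fit). Gpx1 had 137, 141 and 139.5 FPKM in pretreated H2O2, against 169.9, 173 and 172 FPKM in H2O2 (log2 fold change −0.27, adjusted p = 5.94e-06), a call that ended in the length-corrected fit at −0.02. Selenoprotein M, Selenom, had 38.9 to 40.4 FPKM in pretreated H2O2 and 54.4 to 56.7 FPKM in H2O2 (log2 fold change −0.46; −0.23 in the length-corrected fit). Txnrd3, another thioredoxin reductase, had 16.5 to 16.9 FPKM in pretreated H2O2 and 12.9 to 13.03 FPKM in H2O2 (log2 fold change 0.40). In the list for selenocysteine synthesis and insertion 8 of 13 genes fell and 3 rose. Its lower members include Xpo1, Lrp2 and Lrp8, which do not themselves make or insert selenocysteine. Sephs2, which makes the selenium donor, had 16.4, 15.6 and 16.1 FPKM in pretreated H2O2, against 25.2, 24.8 and 26.3 FPKM in H2O2 (log2 fold change −0.64, adjusted p = 5.89e-08). The selenocysteine elongation factor Eefsec had 14.8, 14.2 and 14.8 FPKM in pretreated H2O2, against 23.9, 23.1 and 22.5 FPKM in H2O2 (log2 fold change −0.64, adjusted p = 1.26e-07).

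Iron and ferroptosis genes moved in both directions. Ferroptosis is a death driven by iron and lipid peroxides, which GPX4 holds back. The ferritin heavy chain Fth1 had 239, 238 and 238 FPKM in pretreated H2O2 and 239, 234 and 239 FPKM in H2O2, without a call (adjusted p = 0.12). DESeq2 called it higher by 0.08 on the log2 scale and the length-corrected fit by 0.26. The light chain Ftl1 had 1388, 1474 and 1435 FPKM in pretreated H2O2, against 1098, 1161 and 1138 FPKM in H2O2 (log2 fold change 0.37, adjusted p = 2.94e-07; 0.62 in the length-corrected fit). The iron importer Tfrc stood at 51.7, 48.3 and 49.9 FPKM in pretreated H2O2, against 33.4, 31.4 and 32.5 FPKM in H2O2 (log2 fold change 0.65, adjusted p = 1.9e-09). The exporter Slc40a1 stood at no more than 0.0229 FPKM in any library of either group. Heme oxygenase 2, Hmox2, the constitutive enzyme, fell to 9.85, 10.8 and 8.79 FPKM in pretreated H2O2, against 23.1, 20.7 and 21.7 FPKM in H2O2 (log2 fold change −1.12, adjusted p = 2.08e-08). The lipid-activating Acsl4 had 14.5 to 14.8 FPKM in pretreated H2O2 and 13.9 to 14.5 FPKM in H2O2, without a call (adjusted p = 0.154; 0.12 and called by DESeq2, adjusted p = 0.0346). Its relative Acsl3, which favours monounsaturated lipids, fell to 7.58, 7.08 and 7.72 FPKM in pretreated H2O2, against 17.6, 16.8 and 17.5 FPKM in H2O2 (log2 fold change −1.18, adjusted p = 2.29e-10). Ptgs2, a prostaglandin synthase often used as a marker of ferroptosis, rose to 99.1, 95.5 and 97.2 FPKM in pretreated H2O2, against 27.8, 26.6 and 26.8 FPKM in H2O2 (log2 fold change 1.88, adjusted p = 2.46e-13). Of 27 ferroptosis genes 11 rose and 13 fell (11 each in the length-corrected fit), and of 33 heme and iron genes 14 rose and 13 fell. These counts are not far from the shares over genes with 5 FPKM or more, 33.4% higher and 47.4% lower, and say nothing particular of these lists.

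**Figure D3:**
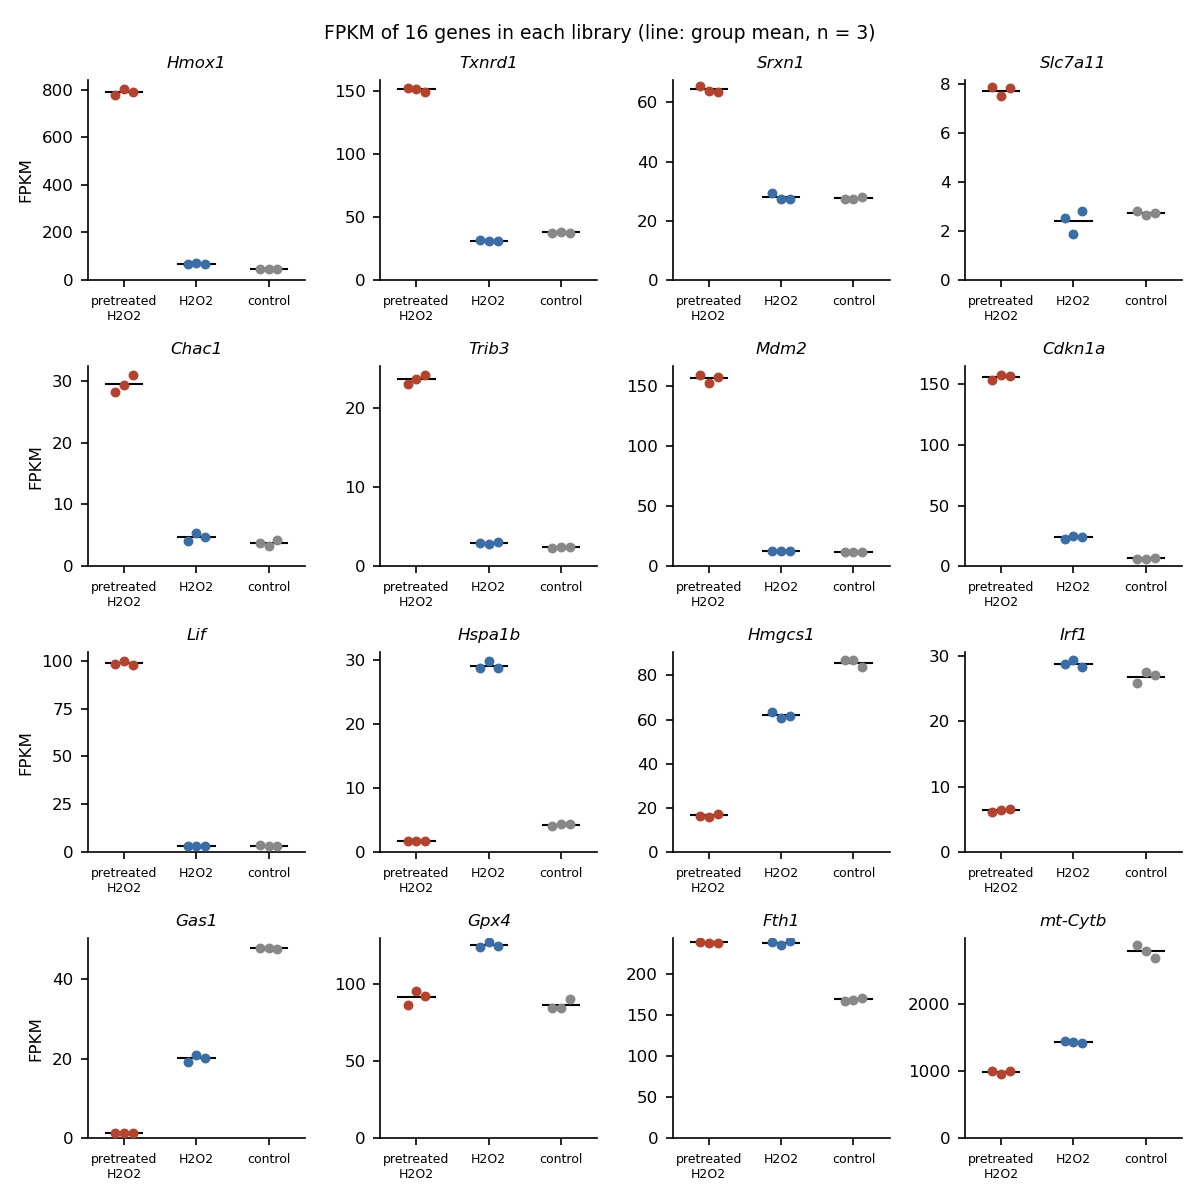
FPKM (vertical, linear from 0) of selected genes in each library of pretreated H2O2, H2O2 and control; points are libraries and lines the means of 3. The groups pretreated H2O2 and H2O2 overlap in the panel of Fth1 and in no other panel.

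The integrated stress response rose almost throughout. Of 45 tested genes driven by ATF4 and CHOP 43 rose and 0 fell, with a median log2 fold change of 0.92, against 0.02 over all genes. Fgf21 and Jdp2 were not called. The promoters of Trib3 and Chac1 hold the TGATGNAA matches printed above. Trib3, a pseudokinase that restrains AKT, stood at 23.1, 23.7 and 24.3 FPKM in pretreated H2O2, against 2.97, 2.74 and 3.06 FPKM in H2O2 (8.27-fold, log2 fold change 3.05 with an SE of 0.068, adjusted p = 2.49e-12). Chac1, which degrades glutathione, had 28.1, 29.3 and 31 FPKM in pretreated H2O2 and 4.02, 5.29 and 4.76 FPKM in H2O2 (log2 fold change 2.68 with an SE of 0.11, adjusted p = 6.68e-10). The asparagine synthetase Asns had 214, 204 and 207 FPKM in pretreated H2O2, against 109, 108 and 109 FPKM in H2O2 (log2 fold change 0.97). The secreted stress factor Gdf15 had 26.5, 28.6 and 26.1 FPKM in pretreated H2O2, against 1.12, 1.68 and 1.57 FPKM in H2O2 (log2 fold change 4.23). Of the factors themselves, Atf4 had 254, 252 and 253 FPKM in pretreated H2O2 and 164, 171 and 165 FPKM in H2O2 (log2 fold change 0.63, adjusted p = 9e-11). Ddit3, which encodes CHOP, had 12.9 to 13.3 FPKM in pretreated H2O2 and 6.56 to 7.41 FPKM in H2O2 (log2 fold change 0.92). Atf3 had 5.93 to 6.81 FPKM in pretreated H2O2 and 1.83 to 2.28 FPKM in H2O2 (log2 fold change 1.69).

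Both regulatory subunits of the phosphatase that reverses eIF2alpha phosphorylation rose. Ppp1r15b, the constitutive subunit, had 44.1, 42.9 and 43.6 FPKM in pretreated H2O2, against 12.02, 12.6 and 12.2 FPKM in H2O2 (log2 fold change 1.86, adjusted p = 4.95e-14). The inducible Ppp1r15a had 35.8, 38 and 37.1 FPKM in pretreated H2O2, against 16.4, 14.3 and 15.1 FPKM in H2O2 (log2 fold change 1.31, adjusted p = 1.63e-10). Among the kinases, the endoplasmic reticulum sensor Eif2ak3 had 4.86 to 5.48 FPKM in pretreated H2O2 and 4.24 to 4.43 FPKM in H2O2 (log2 fold change 0.29). The sensor of double-stranded RNA Eif2ak2 had 3.57 to 4.43 FPKM in pretreated H2O2 and 5.001 to 5.65 FPKM in H2O2 (log2 fold change −0.42). Over 12 genes for the kinases, the phosphatase, eIF2alpha and its exchange factor 4 rose and 6 fell.

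Amino acid transport rose for the most part. Of 23 amino acid transporters 16 rose and 3 fell (median 0.52). The importer of cationic amino acids Slc7a1 had 36.1, 35.7 and 35.3 FPKM in pretreated H2O2, against 5.35, 5.03 and 5.098 FPKM in H2O2 (7.07-fold, adjusted p = 2.26e-15). Slc3a2, the shared heavy chain of Slc7a5 and Slc7a11, reached 137, 138 and 136 FPKM in pretreated H2O2, against 62.95, 64.05 and 60.4 FPKM in H2O2 (log2 fold change 1.17, adjusted p = 1.21e-12). Slc7a5 had 125 to 130.0 FPKM in pretreated H2O2 and 52.7 to 54.7 FPKM in H2O2 (log2 fold change 1.29). The glutamate carrier Slc1a3 fell, and had 0.8197, 0.59 and 0.601 FPKM in pretreated H2O2, against 1.65, 1.77 and 1.68 FPKM in H2O2 (log2 fold change −1.30, adjusted p = 5.46e-07). Of 20 transfer RNA synthetases 12 rose and 5 fell (15 and 3 in the length-corrected fit), and the highest fold was that of Nars, at 168 to 175 FPKM in pretreated H2O2 and 74.7 to 80.5 FPKM in H2O2 (log2 fold change 1.16). Qars fell, to 14.7 to 15.3 FPKM in pretreated H2O2, against 22.2 to 22.7 FPKM in H2O2 (log2 fold change −0.55, adjusted p = 1.21e-09). In the mitochondrial folate pathway Mthfd2 rose 1.69-fold and Shmt2 1.35-fold, whereas the cytosolic NADPH source Idh1 fell to 12.7, 10.9 and 10.8 FPKM in pretreated H2O2, against 28.9, 27.1 and 26.6 FPKM in H2O2 (log2 fold change −1.23, adjusted p = 3.1e-09).

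Genes for chaperones and the stress response of the endoplasmic reticulum rose more often than they fell. Genes of the heat shock response fell more often than they rose. In the endoplasmic reticulum list 17 of 34 rose and 9 fell, and the rises include sensors and factors such as Ern1, Atf6 and Xbp1. Of its chaperones and folding enzymes some rose (Hspa5, Hyou1), some fell (Pdia4, Pdia6) and some were not called (Calr, Hsp90b1). Its main chaperone Hspa5 had 515, 497 and 509.9 FPKM in pretreated H2O2, against 246, 238 and 246 FPKM in H2O2 (log2 fold change 1.09 with an SE of 0.021, adjusted p = 5.92e-13). The sensor Ern1 had 10.6, 10.2 and 10.3 FPKM in pretreated H2O2, against 4.04, 4.04 and 4.58 FPKM in H2O2 (log2 fold change 1.32). In the heat shock list, which is mostly cytosolic but also holds mitochondrial members and 1 of the endoplasmic reticulum, 10 of 35 rose and 22 fell (11 and 14 in the length-corrected fit). Hspa1b, the inducible HSP70, stood at 1.69, 1.68 and 1.75 FPKM in pretreated H2O2, against 28.7, 29.8 and 28.7 FPKM in H2O2 and 4.27 FPKM in control (16.7-fold lower, adjusted p = 4.95e-14). Its near-identical neighbour Hspa1a had 0.444, 0.474 and 0.364 FPKM in pretreated H2O2, against 6.91, 6.76 and 6.35 FPKM in H2O2. The copies are alike also in their promoter window around the GAANNTTC match, and the division of reads between them is uncertain. The constitutive Hspa8 fell to 402, 386 and 391 FPKM in pretreated H2O2, against 807, 782 and 803 FPKM in H2O2 (log2 fold change −0.99, adjusted p = 2.53e-12). Hsp90aa1, the inducible HSP90, went the other way, at 296, 276 and 289.9 FPKM in pretreated H2O2, against 208, 198 and 205 FPKM in H2O2 (log2 fold change 0.53, adjusted p = 5.88e-08), as did the mitochondrial Hspa9 (log2 fold change 0.57). The list median was −0.19, and 0.04 in the length-corrected fit.

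Targets of p53 rose more often than they fell, 29 against 13 of 44, with a median of 0.70. Mdm2, which marks p53 for degradation, had 159.6, 153 and 158 FPKM in pretreated H2O2, against 12.6, 12.2 and 12.2 FPKM in H2O2 (13-fold, adjusted p = 1.88e-16). Cdkn1a, the p21 inhibitor of cell cycle kinases, had 154, 158 and 157 FPKM in pretreated H2O2 and 22.4, 24.8 and 23.6 FPKM in H2O2, with 6.32 FPKM in control (log2 fold change 2.75 with an SE of 0.044, adjusted p = 1.41e-13). The kinase gene Plk2 reached 184, 178 and 184 FPKM in pretreated H2O2, against 43.2, 43.9 and 43.2 FPKM in H2O2 (log2 fold change 2.10). Bbc3, which encodes the death-promoting PUMA, had 12.3, 12.2 and 11.9 FPKM in pretreated H2O2, against 1.53, 2.48 and 2.25 FPKM in H2O2 (log2 fold change 2.57, adjusted p = 1.4e-08). Other targets fell. Gadd45b had 22.03 to 24.1 FPKM in pretreated H2O2, against 55.8 to 57.3 FPKM in H2O2 (log2 fold change −1.27). Sesn1 had 1.49 to 2.08 FPKM in pretreated H2O2, against 3.78 to 4.401 FPKM in H2O2 (log2 fold change −1.10). The gene of p53 itself, Trp53, was lower by a small amount, at 65.1, 68.9 and 67.4 FPKM in pretreated H2O2, against 76.98, 78.3 and 76.9 FPKM in H2O2 (log2 fold change −0.17, adjusted p = 3.68e-05; −0.10 in the length-corrected fit and −0.11 with genes under 1 CPM left out). Gdf15, Sesn2 and Tnfrsf10b stand in the p53 and the ATF4 lists at once.

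Regulators of apoptosis did not move in one direction. Of 32 tested 12 rose and 17 fell, near the 33.4% higher and 47.4% lower over genes with 5 FPKM or more. The survival factor Mcl1 had 104, 99.7 and 98.3 FPKM in pretreated H2O2, against 56.5, 54.8 and 58.4 FPKM in H2O2 (log2 fold change 0.86, adjusted p = 1.14e-10). The death receptor Tnfrsf10b had 26.1, 26.4 and 27.3 FPKM in pretreated H2O2, against 11.1, 11.7 and 11.5 FPKM in H2O2 (log2 fold change 1.25, adjusted p = 1.58e-11). The death-promoting Bid fell to 13.4, 15.6 and 15.5 FPKM in pretreated H2O2, against 36.2, 36.9 and 36.3 FPKM in H2O2 (log2 fold change −1.26, adjusted p = 2.7e-10). Casp12 had 3.15 to 3.297 FPKM in pretreated H2O2, against 7.57 to 9.03 FPKM in H2O2 (log2 fold change −1.31).

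Genes of mitosis fell, 37 of 41 with 2 higher (median −0.46, and −0.42 in the length-corrected fit). Cks2, a binding partner of cyclin-dependent kinases, had 34.6, 36.2 and 37.03 FPKM in pretreated H2O2, against 98.4, 92.7 and 93.8 FPKM in H2O2 (log2 fold change −1.37 with an SE of 0.044, adjusted p = 4.94e-11). The spindle kinase Aurka had 28.9, 30.1 and 29.7 FPKM in pretreated H2O2, against 66.6, 62.4 and 61.5 FPKM in H2O2 (log2 fold change −1.07). Ect2, needed for cytokinesis, had 14.8, 14.7 and 14.1 FPKM in pretreated H2O2, against 33.7, 32.04 and 32.7 FPKM in H2O2 (log2 fold change −1.14). In the list for G1, S phase and replication 15 of 49 were higher and 24 lower, near the 33.4% and 47.4% over genes with 5 FPKM or more, and 17 were higher and 17 lower in the length-corrected fit. Cyclin D1, Ccnd1, fell to 20.5, 19.9 and 19.3 FPKM in pretreated H2O2, against 47.1, 46.2 and 46.7 FPKM in H2O2 (log2 fold change −1.20, adjusted p = 1.34e-12). The origin licensing factors Cdt1 and Orc1 rose. Cdt1 had 62.4, 64.02 and 61.8 FPKM in pretreated H2O2, against 32.04, 33.3 and 33.7 FPKM in H2O2 (log2 fold change 0.96). Orc1 had 12.7 to 14.3 FPKM in pretreated H2O2, against 6.62 to 7.29 FPKM in H2O2 (log2 fold change 0.98). In DNA repair 18 of 31 genes fell and 6 rose. The recombination helicase Rad54l had 2.04, 2.18 and 2.22 FPKM in pretreated H2O2, against 5.77, 5.18 and 5.18 FPKM in H2O2 (log2 fold change −1.29).

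Genes of cholesterol synthesis and uptake fell almost as a whole. Of 30 genes 26 fell and 3 rose, and 13 fell at least 2-fold (median −0.88, against 0.02 over all genes). Hmgcs1, an early enzyme of the pathway with a CACCCCAC match in its promoter, had 16.5, 16.1 and 17.2 FPKM in pretreated H2O2, against 63.5, 60.9 and 61.7 FPKM in H2O2 and 85.7 FPKM in control (3.66-fold lower, adjusted p = 1.19e-13). Fdft1, which commits the pathway to sterols, had 13.2, 12.7 and 13.3 FPKM in pretreated H2O2, against 39.3, 38.9 and 40.1 FPKM in H2O2 (log2 fold change −1.56). Msmo1 had 20.2, 18.9 and 19.4 FPKM in pretreated H2O2, against 54.4, 53.6 and 53.9 FPKM in H2O2 (log2 fold change −1.44). The transcription factor gene of the pathway, Srebf2, rose and had 53.6, 54.2 and 55.3 FPKM in pretreated H2O2, against 39.7, 40.7 and 38.8 FPKM in H2O2 (log2 fold change 0.48, adjusted p = 5.64e-09), and its escort Scap rose too (log2 fold change 0.22). The cholesterol transporter Npc1l1, known from the gut, was among the 15 largest rises, at 5.503, 5.74 and 5.73 FPKM in pretreated H2O2, against 0, 0.0492 and 0.09198 FPKM in H2O2 (log2 fold change 6.86 with an SE of 0.51, adjusted p = 1.28e-07), where the 3 H2O2 libraries held 46 counts in all.

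Fatty acid synthesis genes also fell more often than they rose, with 19 of 28 genes lower and 4 higher. The desaturase Scd2 had 132, 126 and 131 FPKM in pretreated H2O2, against 307, 303 and 307 FPKM in H2O2 and 439 FPKM in control (log2 fold change −1.20 with an SE of 0.020, adjusted p = 2.31e-13). The elongase Elovl6 had 3.98, 4.38 and 4.61 FPKM in pretreated H2O2, against 11.8, 10.8 and 10.6 FPKM in H2O2 (log2 fold change −1.32). Soat1, which stores cholesterol as esters, rose to 11.8, 11.2 and 11.6 FPKM in pretreated H2O2, against 6.79, 6.29 and 6.59 FPKM in H2O2 (log2 fold change 0.84, adjusted p = 4.38e-10).

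**Figure D4:**
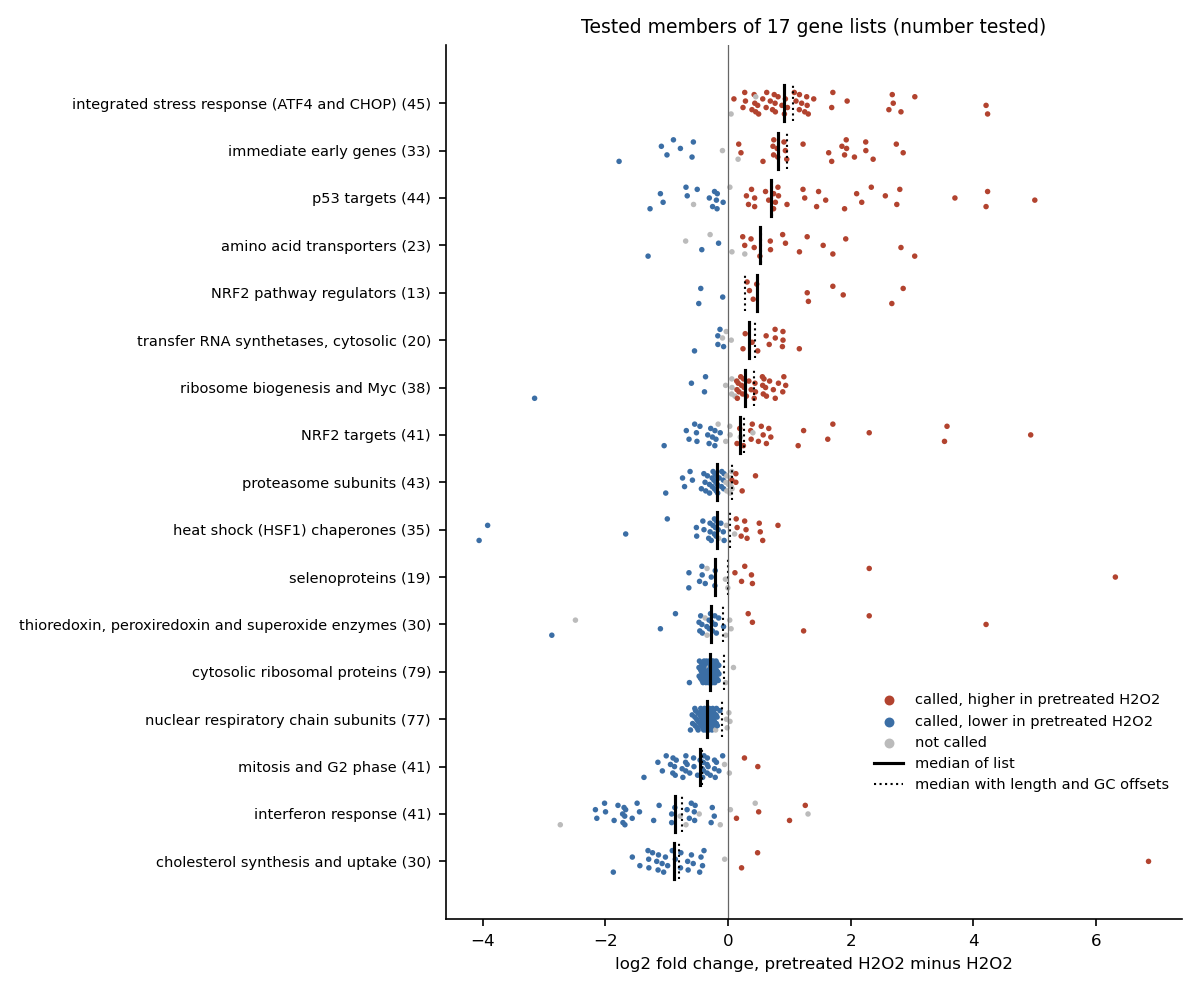
Log2 fold change, pretreated H2O2 minus H2O2 (horizontal), of each tested member of selected gene lists, with the number tested in brackets; red points were called higher, blue points called lower and grey points not called, solid lines are list medians and dotted lines the medians in the length-corrected fit. Members of the integrated stress response lie right of 0 and most cholesterol genes left of it, and the medians of the ribosomal protein and respiratory chain lists shrink towards 0 in the length-corrected fit.

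Interferon-induced genes fell in 29 of 41, with 4 higher (median −0.87). Irf1, a transcription factor of this response, had 6.12, 6.46 and 6.57 FPKM in pretreated H2O2, against 28.7, 29.4 and 28.3 FPKM in H2O2 and 26.8 FPKM in control (log2 fold change −2.14 with an SE of 0.037, adjusted p = 2.68e-13). The ubiquitin-like Isg15 had 41.9, 42.4 and 41.2 FPKM in pretreated H2O2, against 61.4, 64.5 and 61.8 FPKM in H2O2 (log2 fold change −0.55; −0.28 in the length-corrected fit). The immune GTPase Tgtp2 had 1.09, 1.37 and 1.17 FPKM in pretreated H2O2, against 9.91, 9.69 and 8.86 FPKM in H2O2 (log2 fold change −2.94, adjusted p = 3.14e-11). Subunits of the immunoproteasome, which interferon induces, fell too. Psmb8 had 12.04, 12.6 and 12.01 FPKM in pretreated H2O2, against 20.1, 20.6 and 20.5 FPKM in H2O2 (log2 fold change −0.71). Psmb10 had 24.1 to 26.1 FPKM in pretreated H2O2, against 42.2 to 43.8 FPKM in H2O2 (log2 fold change −0.74). Over all 43 proteasome subunits 29 fell and 5 rose, but the median of −0.17 was 0.07 in the length-corrected fit, where 22 rose and 11 fell, and with DESeq2's size factors 10 rose and 24 fell.

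The list of NF-kappaB, cytokine and chemokine genes went in both directions, 15 of 32 higher and 11 lower. Its rises include genes of the transcription factor NF-kappaB, such as Nfkb1, Nfkb2, Rela and Relb. Its falls include the chemokines Cxcl5, Cxcl12 and Ccl7, but other chemokines rose (Cxcl16, Ccl5 and Ccl2) or were not called (Cxcl10 and Ccl8). Lif, leukemia inhibitory factor, a signal of the interleukin 6 family, had 98.3, 99.5 and 97.9 FPKM in pretreated H2O2, against 3.17, 3.22 and 3.01 FPKM in H2O2 and 3.34 FPKM in control (32.1-fold, adjusted p = 3.98e-16). Its relative Il11 had 1.66, 1.102 and 1.35 FPKM in pretreated H2O2 and 0.0959, 0.189 and 0.179 FPKM in H2O2 (log2 fold change 3.14, adjusted p = 2.88e-06). The growth factor of macrophages Csf1 fell to 189, 191 and 187 FPKM in pretreated H2O2, against 272, 273 and 271 FPKM in H2O2 (log2 fold change −0.49). The neutrophil attractant Cxcl1 had 1.02, 1.59 and 1.15 FPKM in pretreated H2O2, against 5.09, 4.34 and 4.19 FPKM in H2O2 (log2 fold change −1.82, adjusted p = 5.31e-07).

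Immediate early genes, the first to answer growth and stress signals, rose in 24 of 33 and fell in 7 (median 0.81). Members of the AP-1 family moved in both directions. Fosl1 had 56.9, 60.2 and 60.1 FPKM in pretreated H2O2, against 8.14, 9.06 and 9.73 FPKM in H2O2 (log2 fold change 2.75 with an SE of 0.058, adjusted p = 1.58e-12). Junb had 158, 164 and 152 FPKM in pretreated H2O2, against 84.2, 87.95 and 85.2 FPKM in H2O2 (log2 fold change 0.91). Fos itself fell to 4.55, 4.89 and 4.59 FPKM in pretreated H2O2, against 16.04, 16.1 and 17.04 FPKM in H2O2 and 8.49 FPKM in control (log2 fold change −1.78, adjusted p = 3.34e-10). Jun had 11.8, 12.02 and 12.2 FPKM in pretreated H2O2, against 25.8, 26.6 and 25.8 FPKM in H2O2 (log2 fold change −1.09, adjusted p = 2.05e-10).

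Of 36 growth factor ligands and receptors 16 rose and 12 fell. The vessel growth factor Vegfa, also a member of the ATF4 list, had 97.8, 98.4 and 96.7 FPKM in pretreated H2O2, against 14.8, 15.7 and 15.7 FPKM in H2O2 (6.47-fold, adjusted p = 6.26e-15). Epiregulin, Ereg, a ligand of the EGF receptor, had 18.2, 17.6 and 18.3 FPKM in pretreated H2O2, against 3.28, 3.27 and 3.03 FPKM in H2O2 (log2 fold change 2.53). The metalloprotease inhibitor Timp3 had 138, 133 and 137 FPKM in pretreated H2O2 and 16.1, 15.5 and 15.6 FPKM in H2O2 (8.82-fold, adjusted p = 4.35e-16). The YAP targets Ccn2 and Ccn1 rose. Ccn2 had 298, 306 and 296 FPKM in pretreated H2O2, against 60.3, 59.8 and 58.7 FPKM in H2O2 (log2 fold change 2.36). Ccn1 had 780.3, 796 and 802 FPKM in pretreated H2O2, against 354, 354 and 357 FPKM in H2O2 (log2 fold change 1.19). Other YAP targets fell. Ajuba had 11.2 to 11.7 FPKM in pretreated H2O2, against 32.2 to 33.9 FPKM in H2O2 (log2 fold change −1.50). Amotl2 had 24.9 to 26.4 FPKM in pretreated H2O2, against 68.01 to 68.8 FPKM in H2O2 (log2 fold change −1.38). Over the 20 YAP and TAZ targets 11 rose and 7 fell.

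Markers of mesenchyme fell in 8 of 11 and rose in 1. The receptor Pdgfrb had 10.3, 9.799 and 10.1 FPKM in pretreated H2O2, against 31.6, 31.9 and 32.5 FPKM in H2O2 and 59.3 FPKM in control (log2 fold change −1.63 with an SE of 0.029, adjusted p = 2.69e-13). The collagen chain Col1a2 had 12.3, 11.9 and 12.4 FPKM in pretreated H2O2, against 26.3, 25.5 and 26.3 FPKM in H2O2 (log2 fold change −1.06). The abundant Col1a1 had 128, 128 and 129 FPKM in pretreated H2O2, against 154, 155 and 154 FPKM in H2O2 (log2 fold change −0.24; −0.41 in the length-corrected fit). Extracellular matrix genes as a whole rose in 21 of 45 and fell in 18, against 32.4% higher and 31.3% lower over all genes, and rose in 17 and fell in 20 in the length-corrected fit, where the median was −0.10, against 0.06. Growth arrest specific 1, Gas1, a membrane receptor that binds hedgehog proteins, had the next largest fall after Hspa1b among genes with 5 FPKM or more, to 1.22, 1.22 and 1.32 FPKM in pretreated H2O2, against 19.2, 20.9 and 20.1 FPKM in H2O2 and 47.8 FPKM in control (15.6-fold lower, adjusted p = 1.2e-14).

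The other largest falls held several developmental regulators. The Wnt receptor Fzd2 had 6.21, 7.698 and 6.36 FPKM in pretreated H2O2, against 44.1, 45.7 and 45.6 FPKM in H2O2 (log2 fold change −2.71). The transcription factor gene Osr1 had 2.77, 3.6 and 4.36 FPKM in pretreated H2O2, against 21.7, 23.7 and 21.9 FPKM in H2O2. Nr2f2, which encodes the nuclear receptor COUP-TFII, had 1.37, 1.46 and 1.4 FPKM in pretreated H2O2, against 8.14, 8.11 and 7.16 FPKM in H2O2. Their log2 fold changes were −2.62 and −2.44. The growth factor Bmp4 had 0.624, 0.583 and 0.753 FPKM in pretreated H2O2, against 5.12, 4.396 and 5.89 FPKM in H2O2 (log2 fold change −2.92). The water channel Aqp5 had 0.836, 0.768 and 0.626 FPKM in pretreated H2O2, against 5.29, 5.21 and 5.5 FPKM in H2O2 (log2 fold change −2.80). The adrenergic receptor Adra1d had 0.747, 0.593 and 0.59 FPKM in pretreated H2O2, against 7.43, 8.67 and 8.07 FPKM in H2O2 (log2 fold change −3.61). Medag, Tent5b, Arhgef39 and Pnrc2 completed the 15 largest falls, at log2 fold changes of −3.46, −3.56, −2.65 and −2.49. The ranking took only genes without overlap, so every pretreated library lay below every H2O2 library in all 15 by choice.

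Several of the largest rises were of genes nearly silent in H2O2. They reached 5 FPKM only in pretreated H2O2 and were ranked by fold, so this contrast follows in part from the choice. Celsr2, an adhesion receptor of the cadherin family, stood at 5.47, 5.53 and 5.85 FPKM in pretreated H2O2, against 0.0248, 0.04997 and 0.0454 FPKM in H2O2 (log2 fold change 7.10 with an SE of 0.20, adjusted p = 1.63e-11), where its 3 libraries held 100 counts in all, against 13660 in pretreated H2O2. Alcam, an adhesion molecule, had 7.99, 8.34 and 8.503 FPKM in pretreated H2O2, against 0.398, 0.318 and 0.3705 FPKM in H2O2 (log2 fold change 4.54). The lipoprotein receptor Apobr had 14.5, 14.1 and 14.6 FPKM in pretreated H2O2, against 0.294, 0.7102 and 0.596 FPKM in H2O2 (log2 fold change 4.76). Gzmm, a granzyme of killer lymphocytes, had 6.95, 7.16 and 6.19 FPKM in pretreated H2O2, against 0.418, 0.336 and 0.126 FPKM in H2O2. Its start lies 622 bp beyond the end of Cdc34 on the same strand (56.7 FPKM in pretreated H2O2 and 47.7 FPKM in H2O2). That of the sperm gene Tmem95, at 11.5, 12.8 and 11.6 FPKM in pretreated H2O2, against 0.875, 0.5799 and 1.01 FPKM in H2O2, lies 208 bp beyond Kctd11 (19.3 FPKM in pretreated H2O2 and 5.45 FPKM in H2O2). The oviduct gene Ovgp1, at 10.1, 9.56 and 10.2 FPKM in pretreated H2O2, against 0.672, 0.6803 and 0.821 FPKM in H2O2, starts 3951 bp beyond Wdr77 (46.4 FPKM in pretreated H2O2 and 56.9 FPKM in H2O2). Celsr2 starts 9313 bp beyond the end of Sars on the same strand (97.86 FPKM in pretreated H2O2 and 62.75 FPKM in H2O2). Whether reads counted for Gzmm, Tmem95, Ovgp1 or Celsr2 began in the neighbour was not tested.

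More genes gave counts in pretreated H2O2. A count was found for 24106 ± 54.7 genes in pretreated H2O2, 20690 ± 212 in H2O2 and 20387 ± 325 in control (SD, n = 3 each; two-sided exact permutation p = 0.1 for pretreated H2O2 against H2O2, the smallest that 3 libraries against 3 allow). At 12 counts or more, the numbers were 17751 ± 57.01 in pretreated H2O2 and 15656 ± 138 in H2O2. By class, antisense RNAs rose in 269 of 746 (36.1%) and fell in 43 (5.76%), and lincRNAs rose in 243 of 609 (39.9%) and fell in 70 (11.5%). Loci awaiting experimental proof rose in 197 of 524 (37.6%) and fell in 27 (5.15%). Protein-coding genes rose in 4687 (34.2%) and fell in 5222 (38.1%) of 13721. Over all genes tested 32.4% were higher and 31.3% lower. The low-count filter kept genes that passed in a single group, so low genes could enter through pretreated H2O2 alone. These class counts are therefore a description. The median level of an antisense RNA was 0.312 FPKM in pretreated H2O2 and 0.153 FPKM in H2O2. The libraries were made with a strand-marking method, but whether counting used the strand is not given in the sources used here, so reads from a gene and its antisense partner cannot be told apart.

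RNA of the mitochondrial genome was low in both groups relative to control. Its share of all counts was 0.898 ± 0.0172% in pretreated H2O2 and 1.01 ± 0.00322% in H2O2, against 2.66 ± 0.069% in control (SD, n = 3 each; the same exact permutation p of 0.1). Of the 13 protein-coding genes 9 fell and 3 rose (6 and 5 in the length-corrected fit). Cytochrome b, mt-Cytb, had 995, 953 and 993 FPKM in pretreated H2O2, against 1443, 1432 and 1423 FPKM in H2O2 and 2780.0 FPKM in control (log2 fold change −0.52 with an SE of 0.026, adjusted p = 3.09e-09; −0.22 and still called in the length-corrected fit). The ATP synthase subunit mt-Atp6 had 1318, 1240.3 and 1298 FPKM in pretreated H2O2, against 2167, 2136 and 2194 FPKM in H2O2 (log2 fold change −0.72; −0.47 in the length-corrected fit). The complex I subunit mt-Nd6, the one protein gene on the other strand, rose to 62.2, 53.4 and 61.9 FPKM in pretreated H2O2, against 26.3, 20.1 and 21.7 FPKM in H2O2 and 528 FPKM in control (log2 fold change 1.42, adjusted p = 1.61e-08). Of 19 mitochondrial transfer RNAs tested 17 rose and 0 fell. mt-Ty, the tyrosine transfer RNA, had 18.8, 18.3 and 18.9 FPKM in pretreated H2O2, against 1.07, 0 and 1.92 FPKM in H2O2 and 98.4 FPKM in control, with 15 counts in all in H2O2. Its neighbour mt-Ta had 9.94 to 12.7 FPKM in pretreated H2O2, against 0.429 to 0.753 FPKM in H2O2 and 68.99 FPKM in control. mt-Tn had 11.2 to 13.8 FPKM in pretreated H2O2, against 0.562 to 1.096 FPKM in H2O2, and mt-Tc 10.1 to 12.1 FPKM in pretreated H2O2, against 0 to 1.298 FPKM in H2O2. No fold is given for these 3, which had 12 counts or fewer over the H2O2 libraries. All 4 lie on the same strand as mt-Nd6, and all 5 stood below control in both groups. The strand used in counting is not given, so reads from opposite strands cannot be told apart for these genes either. The libraries hold poly(A) RNA, and whether these reads came from mature transfer RNAs was not tested.

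Nuclear genes of the respiratory chain and of the cytosolic ribosome fell by small amounts in near unison. Of 77 respiratory chain subunits 72 fell and 0 rose (median −0.34), and of 79 ribosomal proteins 76 fell and 0 rose (median −0.30). In the length-corrected fit these medians were −0.09 and −0.06, with 40 lower and 6 higher respiratory chain genes and 34 lower and 8 higher ribosomal genes. Ndufb10, of complex I, had 49.7, 51.5 and 52.2 FPKM in pretreated H2O2, against 75.9, 80.6 and 77.5 FPKM in H2O2 and 51.7 FPKM in control (log2 fold change −0.58; −0.31 in the length-corrected fit). Rpl28 had 194, 205 and 197 FPKM in pretreated H2O2, against 274, 286 and 285 FPKM in H2O2 and 164 FPKM in control (log2 fold change −0.47; −0.20 in the length-corrected fit). Rps20 kept more of its change, at 92.5, 93.3 and 89.6 FPKM in pretreated H2O2, against 129, 131 and 130.2 FPKM in H2O2 (log2 fold change −0.47; −0.40 in the length-corrected fit). Genes that build ribosomes rose, 29 of 38 higher and 4 lower (median 0.28, and 0.42 in the length-corrected fit). Nucleolin, Ncl, had 162, 150.2 and 159 FPKM in pretreated H2O2, against 93.7, 86.7 and 91.5 FPKM in H2O2 (log2 fold change 0.82). The nucleolar helicase Ddx21 had 120.3, 119 and 119 FPKM in pretreated H2O2, against 64.9, 61.3 and 64.3 FPKM in H2O2 (log2 fold change 0.94). Rrs1 had 74.4, 75.4 and 75.7 FPKM in pretreated H2O2, against 41.7, 40.96 and 41.3 FPKM in H2O2 (log2 fold change 0.89).

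Short transcripts fell more often and long ones rose more often. In 4 bins of transcript length, cut at the quartiles over all genes tested, the shortest bin of the genes with 5 FPKM or more in either group had a median log2 fold change of −0.30, with 150 of 1598 higher and 1000 lower, and the longest bin had 0.22, with 1146 of 1906 higher and 508 lower. In the length-corrected fit the medians were −0.04 and 0.11. Ribosomal and respiratory chain genes are mostly short, and the part of transcript length in their change was not tested beyond these offsets. The medians of the integrated stress response (1.07 in the length-corrected fit), p53 targets (0.71), immediate early genes (0.96), interferon genes (−0.75) and cholesterol genes (−0.80) kept their direction and most of their size.

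**Figure D5:**
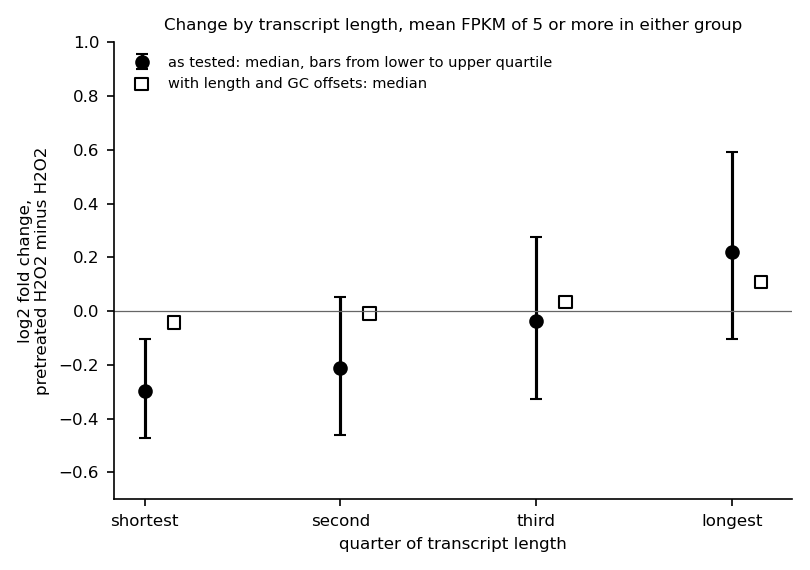
Median log2 fold change, pretreated H2O2 minus H2O2 (vertical), of genes with 5 FPKM or more in either group in 4 bins of transcript length, with bars from the lower to the upper quartile of genes; open squares are medians with offsets for length and GC content. The filled points lie at −0.30 in the shortest bin and 0.22 in the longest, and the open squares at −0.04 and 0.11.

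Glucose and low-oxygen genes were split. Of 24 low-oxygen genes 11 rose and 11 fell (11 and 7 in the length-corrected fit). Falls include Adm (log2 fold change −1.33), Ankrd37 (−1.13) and Pfkfb4 (−0.75). Hexokinase 2, Hk2, had 24.2, 23.7 and 23.8 FPKM in pretreated H2O2, against 9.703, 8.82 and 9.04 FPKM in H2O2 (log2 fold change 1.41, adjusted p = 3.82e-12). Ndrg1, a stress-induced gene, had 18.02, 18.6 and 18.3 FPKM in pretreated H2O2, against 4.24, 4.33 and 4.07 FPKM in H2O2 (log2 fold change 2.15). Ddit4, an inhibitor of mTORC1, had 35.4 to 38.1 FPKM in pretreated H2O2 and 14.8 to 16.3 FPKM in H2O2 (log2 fold change 1.28). The neuronal enolase Eno2 fell to 3.15, 3.702 and 3.22 FPKM in pretreated H2O2, against 6.82, 7.42 and 7.26 FPKM in H2O2 (log2 fold change −1.06, adjusted p = 3.49e-08). Of 25 glycolysis genes 6 rose and 14 fell, and of 25 genes of the tricarboxylic acid cycle 2 rose and 20 fell (4 and 15 in the length-corrected fit), with medians of −0.23 and −0.25 that were −0.07 and −0.09 in the length-corrected fit.

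Receptors through which albumin and particles enter cells fell more often than they rose, 12 against 6 of 20. Lrp2, which encodes the endocytic receptor megalin, stood at 0.385, 0.337 and 0.356 FPKM in pretreated H2O2, against 0.443, 0.4597 and 0.446 FPKM in H2O2 (log2 fold change −0.29, adjusted p = 0.0183; −0.65 in the length-corrected fit), a low level in every library. That call was lost with DESeq2 (−0.24, adjusted p = 0.0642) and without replicate 2 of pretreated H2O2 (−0.24, adjusted p = 0.0637). Caveolin 1, Cav1, the coat protein of caveolae, had 42.8, 39.96 and 41.01 FPKM in pretreated H2O2, against 88.4, 86.04 and 83.5 FPKM in H2O2 (log2 fold change −1.03, adjusted p = 9.65e-11). The clathrin adaptor Dab2 had 4.89, 4.86 and 4.95 FPKM in pretreated H2O2, against 11.2, 11.9 and 11.8 FPKM in H2O2 (log2 fold change −1.22). Lrp1, a relative of megalin, rose to 16.9, 17.9 and 17.3 FPKM in pretreated H2O2, against 8.43, 8.61 and 8.37 FPKM in H2O2 and 44.5 FPKM in control (log2 fold change 1.06; 0.68 in the length-corrected fit).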

How the data were processed

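Poly(A) RNA of 9 HEI-OC1 libraries, 3 of pretreated H2O2, 3 of H2O2 and 3 of control, was sequenced as strand-marked paired reads, per the labels' protocols. The authors deposited estimated counts per gene and FPKM values for the same genes. The tables carry mouse gene identifiers and GRCm38 coordinates, while the submitters' processing notes name the build hg38. The aligner, the counter, its strand setting and how FPKM was scaled are not stated in the sources used. The counts are whole numbers but tend to multiples of 4, so they were treated as estimated counts, and not as the plain counts that had been foreseen.

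Genes that passed edgeR's filter for low counts (18092) entered edgeR's quasi-likelihood test (version 4.0.16, R 4.3.3) with all 9 libraries, TMM factors, 1 term per group and Benjamini-Hochberg adjustment. A standard error is the size of the log2 fold change over the square root of F. Alternatives used DESeq2 1.42.0, limma 3.58.1 on log2(FPKM + 1), other scalings and filters, a replicate block, splines of transcript length and GC content as offsets, and each replicate left out in turn. The steps were tested on simulated data. Single values were compared with a two-sided exact permutation test (Python 3.11.15, scipy 1.17.1). No fold is printed for a group with 12 or fewer counts. The genes named include the 15 largest called rises and falls among genes with 5 FPKM or more in either group. These were ranked only among genes whose pretreated H2O2 and H2O2 libraries did not overlap in FPKM, so their separation follows from the choice. Also named are up to 3 members per direction of each list and a fixed set of redox, iron and uptake genes. Any others given with their FPKM are said to be chosen after their values were seen. Genes named without FPKM, such as Atf6, include list members outside these rules, which were also chosen after their values were seen. Not every gene that these rules name is reported here. The members and lists were chosen with earlier results of these data known. Of 3 replicate pairs with the same number, deviations from the group means correlated at 0.06, 0.14 and 0.08. Pairs with different numbers lay at −0.08 to 0.0009. The same-number values were higher but weak, and pairing is not part of the design, so the numbers were not taken to pair the libraries. The depth was 55395418 to 67215208 counts per library.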

Additional observations from a re-analysis of the deposited data

How the results depend on the processing

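The counts of genes called higher and of genes called lower, over all genes and over those with 5 FPKM or more, stayed within 1.5 times their values under every alternative run. Genes at least 2-fold higher numbered 532 and at least 2-fold lower 245 with limma on log2(FPKM + 1), whose pseudocount shrinks low genes by construction, and 1526 were at least 2-fold higher when genes under 1 CPM were left out, which tests fewer genes. At 12 counts or more the surplus of genes in pretreated H2O2 was 2094.3, against 3415.7 at 1 count or more, and the mitochondrial share differed by −0.341 percentage points of FPKM, against −0.111 of counts. With a replicate block 5676 genes were higher and 5646 lower; each library correlated best with the library of its own number, which is a hint from the data and not part of the design. Without one replicate in turn 10908 to 11256 genes were called.

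Cat, which was not called, was at 0.006516 with DESeq2, 0.0135 with its size factors in edgeR, 0.006934 with counts divided by 4, 0.0234 with genes under 1 CPM left out and 0.127 in the length-corrected fit. In that fit Prdx1 was at 0.0297 and Txn1 at 0.0292, both not called. The cause of these shifts was not tested.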

Other observations

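Genes of the circadian clock, which are not among the stress programs above, rose in 10 of 18 and fell in 3. Nr1d1, a repressor of the clock loop, had 9.62, 8.96 and 9.21 FPKM in pretreated H2O2, against 5.001, 5.29 and 5.501 FPKM in H2O2 (log2 fold change 0.84, adjusted p = 9.04e-08 by edgeR's quasi-likelihood test). The output factor Dbp had 0.312, 0.165 and 0.325 FPKM in pretreated H2O2, against 0.857, 1.36 and 1.103 FPKM in H2O2, and fell (log2 fold change −1.98, adjusted p = 1.89e-05). Long noncoding RNAs linked to stress rose in 7 of 17 and fell in 7. Trp53cor1, a noncoding target of p53 in mouse, had 0.412, 0.699 and 0.469 FPKM in pretreated H2O2, against 0.0812, 0.121 and 0.109 FPKM in H2O2 and 0.0182 FPKM in control (log2 fold change 2.35, adjusted p = 0.000879). The snoRNA host Snhg5 had 5.01, 5.17 and 5.75 FPKM in pretreated H2O2, against 12.9, 12.4 and 14 FPKM in H2O2 and 5.25 FPKM in control (log2 fold change −1.26).

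Zinc and contractile genes were split. The metallothionein Mt2, a metal-binding protein, had 17.8, 19.04 and 14.4 FPKM in pretreated H2O2, against 8.54, 8.802 and 8.85 FPKM in H2O2 (log2 fold change 1.00, adjusted p = 0.000113). The zinc transporter Slc39a13 had 7.06, 7.12 and 6.79 FPKM in pretreated H2O2, against 17.6, 17.3 and 18.4 FPKM in H2O2, and fell (log2 fold change −1.31). Over 17 metallothionein and zinc genes 9 rose and 5 fell (8 and 3 in the length-corrected fit), and over 29 contractile and actin genes 18 rose and 7 fell. Myh9, nonmuscle myosin, had 131, 130.4 and 130.5 FPKM in pretreated H2O2, against 76.9, 76.4 and 76.4 FPKM in H2O2 and 119 FPKM in control (log2 fold change 0.80, chosen after its values were seen). In autophagy 12 of 30 genes rose and 7 fell, but 11 rose and 11 fell with total counts alone as the scaling. Of 36 lysosome genes 16 rose and 10 fell, and 19 rose and 4 fell in the length-corrected fit. Over all genes 32.4% were higher and 31.3% lower. Tfeb, a factor that drives both sets, fell to 0.623, 0.572 and 0.664 FPKM in pretreated H2O2, against 1.25, 1.18 and 1.15 FPKM in H2O2 (log2 fold change −0.91, adjusted p = 2.76e-05).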
